A study of Mus musculus with 4 samples.

Results

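The actins, the tropomyosins and their capping protein tropomodulin were followed here in hair follicle stem cells (HF-SCs) of the mouse as 8 genes, taken by symbol from the deposited gene table: the actins Actb, Actg1 and Acta2, the tropomyosins Tpm1, Tpm2, Tpm3 and Tpm4, and the tropomodulin Tmod3. All 8 were found among the 24421 genes of the table. A mean above 0, which 17044 genes had, was required of a member, so their detection is no result. The series held bulk RNA-seq of 4 libraries of sorted HF-SCs, 2 labelled as controls and 2 labelled miR-205 inducible, from gender-matched C57BL/6 mice at postnatal day 44. In the inducible mice a miR-205 transgene under a doxycycline-responsive promoter (pTRE2) was driven by rtTA made from the Krt14 promoter, which is active in basal cells of the whole skin epithelium, and doxycycline chow was given for 2 d from postnatal day 42. The mice carried a Krt14-H2B-GFP allele, and live cells that were bright for H2B-GFP and for α6 integrin and CD34, and negative for Sca1, were sorted. The labels call the controls untreated, whereas the protocol has both groups on doxycycline chow. Transgene founders were made in FVB mice, although C57BL/6 is the labelled strain. Nothing in the labels says whether each library came from a different mouse or from pooled mice.

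The table gives 1 mean per gene over all 4 libraries, a mean of read counts divided by each library's relative depth (a normalized count), beside the authors' own comparison of the 2 groups. That comparison was not used here, and no value is tied to a labelled library, so no member was compared between control and induced HF-SCs and no test was made. The level of each member, its spread over the 4 libraries where this could be recovered from the digits of the mean, and what the members' sequences hold for miR-205 and for read counting are given instead. In bulk RNA, fewer cells of a type and less RNA per cell cannot be told apart.

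Actin is the globular protein that polymerizes into the filaments of the cell cortex, of junctions and of contractile bundles. Tropomyosins are coiled coils that lie along the filament and govern the access of myosin and of severing proteins to it, and tropomodulins cap the slow-growing, pointed end of tropomyosin-coated filaments. Myosin II pulls on these filaments, and the tension so made is the actomyosin contractility that was studied in the bulge, where HF-SCs reside, and in the hair germ. miR-205 is a microRNA of stratified epithelia, which pairs through its seed, bases 2 to 8, with sites in target mRNAs.

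The mature miR-205-5p is shown first, with its seed in capitals, because every site below is read against it. It is 22 bases long and lies on the minus strand at chr1:193507503-193507524 (RefSeq, GRCm38.p6).
miR-205-5p: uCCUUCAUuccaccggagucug

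Among the longest annotated 3′UTRs of the 8 members, that of Actb alone held the letters ATGAAGG, which pair with the whole seed. The match began at base 575 of 683, at chr5:143664896-143664902 on the minus strand of NCBIM37, in exon 6 of 6, and 1 of the 4 annotated Actb 3′UTRs reached it. Matches to the shorter TGAAGG, which pairs with bases 2 to 7, stood at base 204 of the Actb 3′UTR, at base 570 of 1210 in Tpm2 and at bases 185 and 610 of 1365 in Tpm3. These are the sites, each in 30 bases of mRNA strand with the matching letters in capitals.
Actb, bases 2 to 8: caacttgatgtATGAAGGctttggtctccc
Actb, bases 2 to 7: aaactggaacggTGAAGGcgacagcagttg
Tpm2, bases 2 to 7: aaaggtctggtgTGAAGGtcgttaaagtct
Tpm3, first, bases 2 to 7: gatctttttaacTGAAGGctgctttccctc
Tpm3, second, bases 2 to 7: tgttctgggctgTGAAGGttttcagctttg
The shorter sites lie in NCBIM37 at chr5:143665268-143665273 for Actb, at chr4:43528218-43528223 for Tpm2, and at chr3:89903638-89903643 and chr3:89904063-89904068 for Tpm3.

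**Figure D1:**
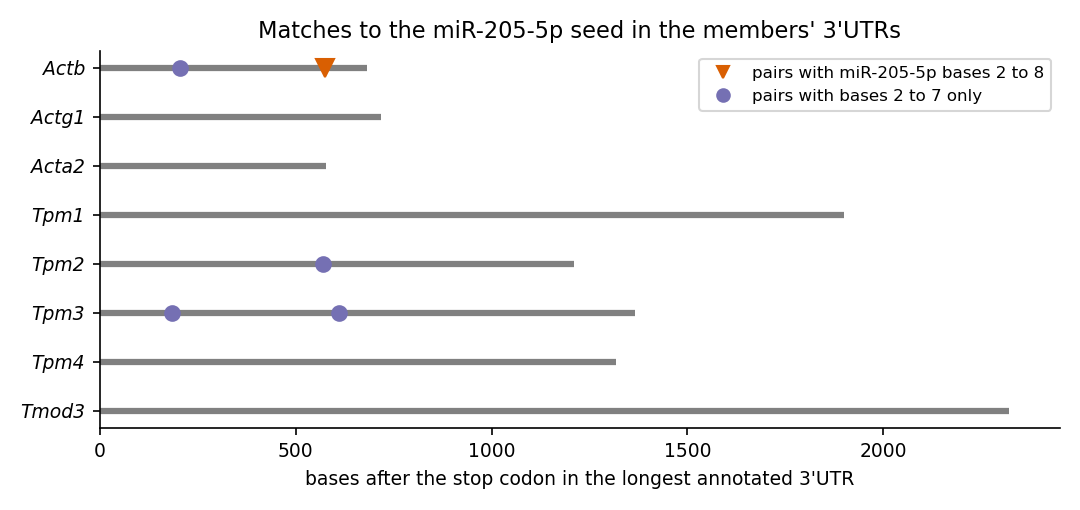
Positions of miR-205-5p seed matches in the longest annotated 3′UTR of each member. The x axis gives bases after the stop codon and each grey bar the length of the 3′UTR; triangles pair with bases 2 to 8 and circles with bases 2 to 7 only. The only triangle stands at base 575 of Actb, and Actg1, Acta2, Tpm1, Tpm4 and Tmod3 carry no mark.

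No match of either length was found in the 3′UTRs of Actg1 (719 bases), Acta2 (577 bases), Tpm1 (1899 bases), Tpm4 (1318 bases) or Tmod3 (2320 bases). Of 14410 coding genes with a 3′UTR, searched in the same way on the mRNA strand, 11.8% held ATGAAGG, beside 1 of the 8 members, and 36.6% held TGAAGG, beside 3 of 8. Every ATGAAGG contains a TGAAGG, so the genes with the longer match are counted among the others too. TGAAGGA, where the shorter match is followed by A, was in 15.6% of genes and in none of the members. In the shortest annotated 3′UTRs ATGAAGG was in 6.53% of genes and in 0 of 8 members, the Actb match being cut off with the distal part. A match of letters is a description of sequence and not a measured site. For Actb the paper reports miR-205 captured on the 3′UTR by direct ligation, and that site was not compared with the matches here.

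The tropomyosins held the full match in their coding sequence instead. ATGAAGG was in the longest coding sequence of Tpm2, at 2 places, and of Tpm3 and Tpm4, which is 3 of the 8 members beside 21.9% of all genes. A match falls at the same place of the tropomyosin coding sequence in Tpm2, Tpm3 and Tpm4, where Tpm1 has 1 base of the 7 changed, and the aligned 30 bases are shown to make this visible, with the 7 site bases in capitals.
Tpm1, no match: gtgagagaggcATGAAAGtcattgaaagcc
Tpm2: gcgagagaggaATGAAGGtcattgaaaacc
Tpm3: gtgagagaggtATGAAGGtgattgaaaatc
Tpm4: gtgagagaggcATGAAGGtaatagagaacc
The site bases lie in NCBIM37 at chr9:66881790-66881796 for Tpm1, chr4:43532368-43532374 for Tpm2, chr3:89891381-89891387 for Tpm3 and chr8:74667353-74667359 for Tpm4, in exon 4 of 9 of the Tpm1 and Tpm2 transcripts aligned and in exon 3 of 8 of those of Tpm3 and Tpm4. All 9 coding transcripts of Tpm3, the 1 of Tpm4 and 4 of the 5 of Tpm2 include the match. The second Tpm2 match, aaaaccgggccATGAAGGatgaggaaaaga, lies downstream in the same exon at chr4:43532344-43532350. The tropomyosins are close relatives, and the 3 members counted above all hold a match at this aligned place. They are therefore not independent occurrences to set against the 21.9% of all genes.

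The cells had the markers of the population that was sorted. The keratins of basal cells Krt5, Krt15 and Krt14 ranked 2, 4 and 9 of all genes by mean, and of the 10 HF-SC markers looked for the lowest was Tcf7l1, with a mean of 590.3. Ly6a, which encodes the Sca1 used to remove other cells, had a mean of 136, near the median of 117 over genes with a mean above 0. Transcripts typical of other cells of the skin were present as well, with a mean of 7246 for the suprabasal keratin Krt10 and 2033 for its partner Krt1. Means were 5882 for the pericyte marker Cspg4, 5186 for the fibroblast collagen Col1a1, 2744 for the immune gene Cd74 and 498 for the melanocyte gene Dct. Except for Krt1, each of these was the highest of its list. The other pericyte markers had means of 41.2 (Pdgfrb), 8.48 (Abcc9), 5.97 (Rgs5) and 1.76 (Kcnj8). The lowest of the other lists were Ivl at 116 (suprabasal), Pdgfra at 39.5 (fibroblast), Ptprc at 87.6 (immune) and Mlana at 9.77 (melanocyte).

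Cytoplasmic actin was among the most abundant messages of these cells. Actg1, which encodes γ-actin, had a mean normalized count of 99962 and ranked 8 of 17044 genes by mean, or 5 of the 15377 genes with an exon length when ranked per kilobase. Actb, which encodes β-actin, had a mean of 26289 and ranked 41 by mean and 51 per kilobase. Actg1 held 0.764% of the summed means of all genes and Actb 0.201%, and all 8 members together held 1.10%. The sum itself was 13085835 normalized counts for an average library.

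Genes can be set against each other only per length, and for this each mean was divided by the kilobases of the gene's annotated exons (NCBIM37). On that scale the keratin Krt14 stood at 51747, and the order of the members was Actg1 at 37608, Actb at 9813, Tpm4 at 2465, Tpm1 at 878, Tpm3 at 589, Tmod3 at 419.5, Tpm2 at 319 and Acta2 at 29.9 normalized counts per kilobase. The median over the 15377 genes with a length was 40.8, so that 7 of the 8 members lay above it and Acta2 below. For Actg1, Actb, Tpm4, Tpm1 and Tpm3 no spread over libraries is known, so neighbours among these are not said to differ. The order of the lower members depended on the length used, since with the longest annotated transcript as the length Tpm2 at 427 came before Tmod3 at 419.5. The library values of Acta2, Tpm2 and Tmod3 are given further on, and those of Tpm2 were 709 to 1398 around a mean of 929 before division by length.

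**Figure D2:**
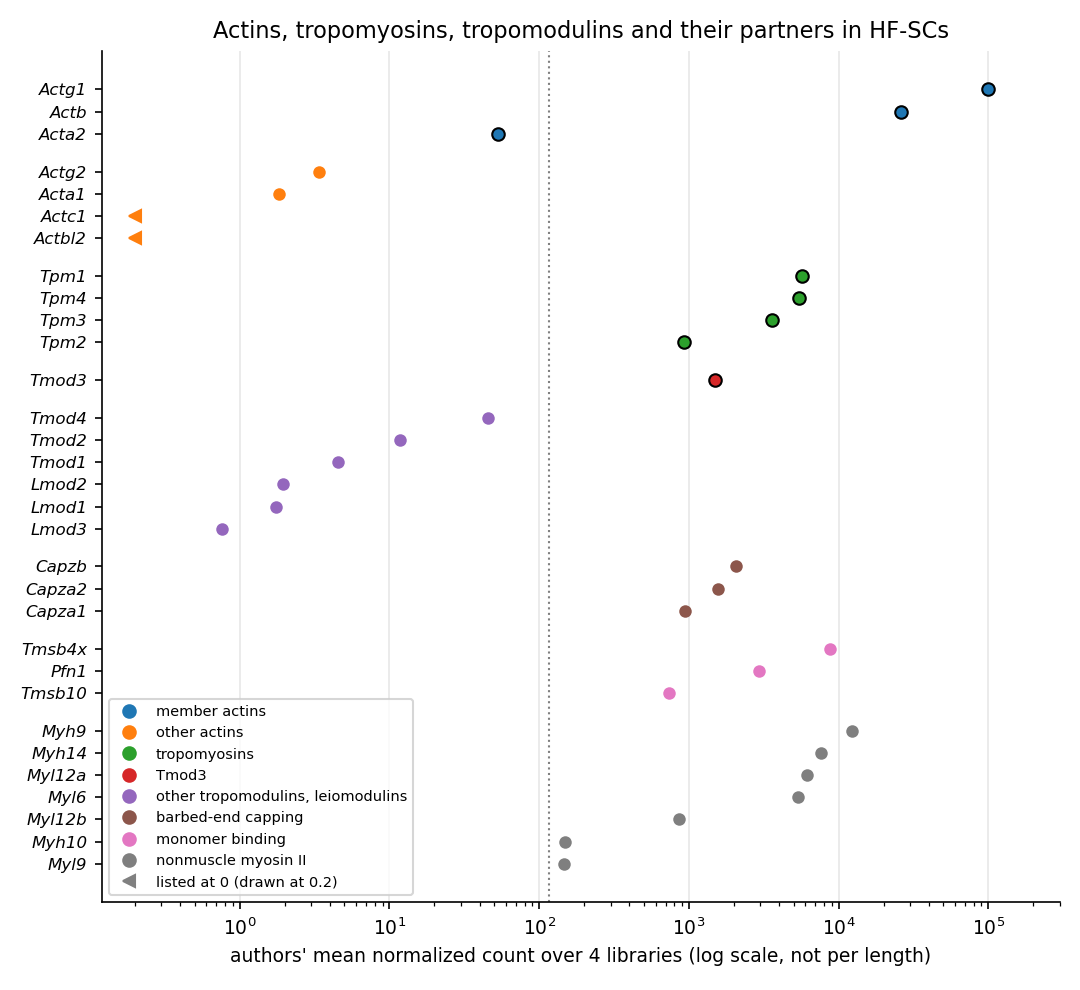
Mean normalized count over the 4 libraries (log axis, not divided by length) of the 8 members, outlined in black, and of related and partner genes. The dotted line is the median of 117 over genes with a mean above 0, and arrows stand for genes listed at 0. Actg1 lies farthest to the right at 99962, and Acta2 at 53.3 is the only member left of the line.

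The actin pool was made of the cytoplasmic pair. Per kilobase of exon, Actg1 held 79.3% of the summed level of all conventional actins looked for, members or not, Actb 20.7% and Acta2 0.0631%. The Actg1 level was 3.83 times that of Actb, and between 3.65 and 3.83 times under all 4 choices of length, none included. Of the other conventional actins, the enteric smooth muscle actin Actg2 had a mean of 3.39 and the skeletal actin Acta1 of 1.83 normalized counts. The cardiac actin Actc1 and the β-like actin Actbl2 were listed at 0. In a single library a count of 0 still allows an expected count of up to 3 reads, worth between 2.43 normalized counts in the deepest and 4.19 in the shallowest. A gene listed at 0 had no read in any of the 4 libraries, so for its mean the limit is lower than this. A very low level of Actc1 and Actbl2 is still not excluded.

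The cytoplasmic actins are nearly the same protein made from messages that differ. From the annotated coding sequences, the 375 residues of β-actin and γ-actin differed at 4 places, which is 98.9% identity, whereas 88.7% of the coding bases were the same. The first 30 coding bases of each show this, with the 8 bases that differ in capitals.
Actb: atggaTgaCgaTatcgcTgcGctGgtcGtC
Actg1: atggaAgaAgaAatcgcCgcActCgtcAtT
The 377 residues of the Acta2 product were 93.6% identical to β-actin and 93.9% to γ-actin. They were closer, at 99.2%, to the enteric actin encoded by Actg2.

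The 4 tropomyosin genes were all expressed, and which of them came first depended on how length was treated. Per kilobase of exon, Tpm4, whose single annotated coding transcript makes a short cytoplasmic tropomyosin, held 58.0% of the summed tropomyosin level, Tpm1 20.7%, Tpm3 13.9% and Tpm2 7.51%. With the longest annotated transcript as the length the shares were 39.5%, 30.5%, 23.4% and 6.61%. Without division by length Tpm1 at 36.4% came before Tpm4 at 34.7%. Tpm1 has 21 annotated transcripts and Tpm3 18, against 2 for Tpm4, so that their exons together are much longer than any 1 transcript. Counts per gene sum all these transcripts, and muscle and cytoplasmic products of Tpm1, Tpm2 and Tpm3 cannot be told apart in this table. Tpm2 had the smallest share of the 4 under each length.

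**Figure D3:**
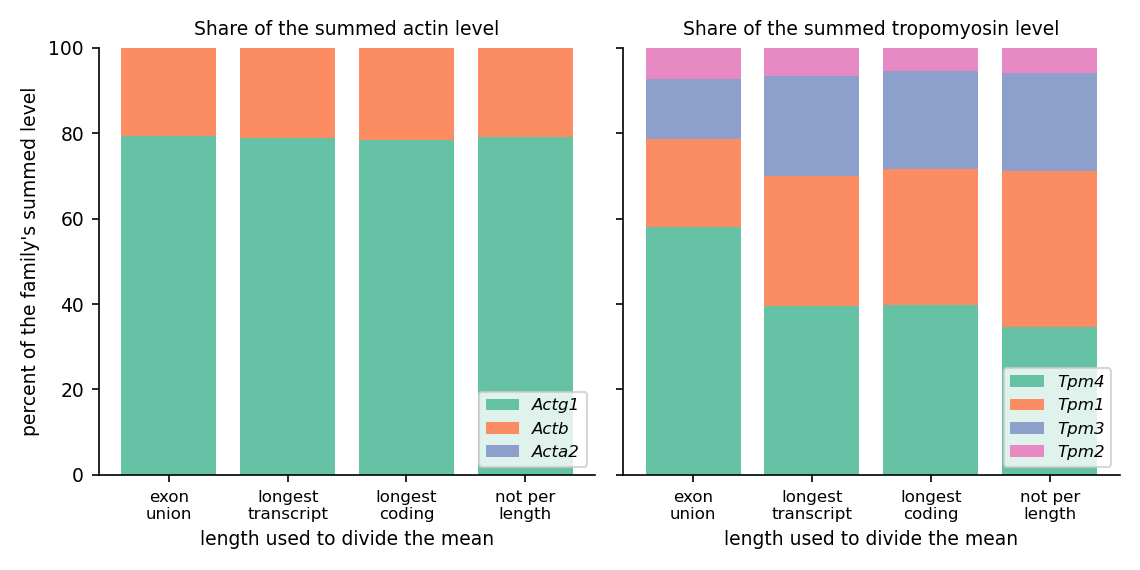
Share of the summed level of each family held by its genes, in percent, with the mean divided by the exon union, the longest transcript, the longest coding length or by no length. Actg1 holds 78.4% to 79.3% of the actins in every bar, whereas the Tpm4 share of the tropomyosins runs from 34.7% to 58.0%; Acta2, at 0.0631% in the first bar, is too thin to be seen.

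Full-length tropomyosins are long coiled coils that share most of their residues. Among 284-residue products, Tpm1 and Tpm3 were 90.8% identical, Tpm1 and Tpm2 86.3%, and Tpm2 and Tpm3 85.6%. The 248-residue product of Tpm4 was 79.0% identical to a Tpm1 product of the same size and 76.2% to a 247-residue product of Tpm3.

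Among the pointed-end cappers Tmod3, the tropomodulin of most nonmuscle cells, was the principal form. Its mean, not divided by length, was 1501 normalized counts, and the means were 45.3 for the skeletal muscle form Tmod4, 11.8 for the neural form Tmod2 and 4.55 for the erythroid and muscle form Tmod1. Per kilobase of exon the Tmod3 level was 15.9 times that of Tmod4 and 369 times that of Tmod2. Under the other choices of length, none included, the ratio to Tmod4 ran from 11.7 to 33.1 and that to Tmod2 from 127 to 353. The leiomodulins, relatives that nucleate filaments in muscle, had means of 1.94 (Lmod2), 1.76 (Lmod1) and 0.763 (Lmod3). The Tmod3 product was 73.4% identical to that of Tmod2, 59.7% to that of Tmod1 and 55.6% to that of Tmod4.

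Per kilobase of exon, the summed level of the member actins was 11.2 times that of the tropomyosins, and the summed tropomyosin level was 10.1 times that of Tmod3. Under all 4 choices of length, none included, the first ratio ran from 5.94 to 11.2 and the second from 10.1 to 15.4. The capping proteins of the opposite, barbed end stood at 265 (Capza2), 267 (Capza1) and 625 (Capzb) normalized counts per kilobase against 419.5 for Tmod3. With the longest annotated transcript as the length Capzb stood at 1212, and Tmod3 again at 419.5. Of the proteins that hold or deliver actin monomers, thymosin β4 (Tmsb4x) stood at 6433, profilin (Pfn1) at 2847 and Tmsb10, between the cappers Capza1 and Capzb, at 574 per kilobase. Per kilobase of the longest coding length Tmsb10, at 5428, lay above these cappers, of which Capzb was the highest at 2277. Of the heavy chains of nonmuscle myosin II, which pulls on these filaments, Myh14 stood at 1050.1 and Myh9 at 958 per kilobase, and Myh10 at 14.3. With the longest annotated transcript as the length Myh9, at 1666, came before Myh14, at 1171. Of the light chains Myl6 stood at 8032, Myl12b at 504 and Myl9 at 125 per kilobase, and Myl12a, with no length in the annotation used, had a mean of 6111 normalized counts.

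Each mean is a sum of whole reads, each worth a fixed amount in its library, and it is written with 15 digits. The worth of 1 read in each of the 4 libraries was read from genes that had 1 read in 1 library, 138 to 232 genes per library, and this gave relative depths of 1.24, 1.18, 0.966 and 0.716 for the libraries named A, B, C and D. Of 7061 genes with a mean of at most 60, exactly 1 set of whole reads gave the mean for 7058 and none for 3. The means do not say which 2 libraries were the controls, and the columns of the authors' comparison were not used to find out, so the libraries are not grouped. Intervals are exact 95% Poisson intervals that cover counting error only. Acta2 and Tpm2 had exactly 1 solution, where 0.0414 further sets of reads were to be found by chance for Tpm2 and far fewer for Acta2. Tmod3 also had 1, but at its mean 1.75 further sets were to be found by chance, and Capza2, at a similar mean, had 3, so that the Tmod3 values hold only if the true reads lie within the tolerance. The means of Actb, Actg1, Tpm1, Tpm3 and Tpm4 are too high for a single answer and were left unsolved, so for these no spread over libraries is known.

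Acta2 was low and uneven. The smooth muscle α-actin, in skin a marker of the arrector pili muscle, the dermal sheath and vessel walls, rested on 54, 102, 56 and 18 reads in libraries A to D. These were 43.7 (32.8 to 57.0), 86.5 (70.6 to 105), 58.0 (43.8 to 75.3) and 25.1 (14.9 to 39.7) normalized counts. Library B was the highest and D the lowest, 3.44-fold apart, and their intervals did not overlap, whereas the intervals of B and C overlapped, as did those of A and D. Without library D the highest value was 1.98 times the lowest.

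Tpm2 stood apart in 1 library. Its reads were 1729, 908, 685 and 600 in libraries A to D, or 1398 (1333 to 1466), 770.3 (721 to 822), 709 (657 to 764) and 838 (772 to 907) normalized counts. Library A, the deepest, was above the other libraries by more than counting error, and the highest value was 1.97 times the lowest. Without library A it was 1.18 times the lowest, with a mean of 772 in place of 929. The group of library A is not known, so whether this difference goes with a condition cannot be told.

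For Tmod3 the solved values were the most even of the 3, with the reserve given above. They were 1576 (1507 to 1648) in library A, 1317 (1252 to 1384) in B, 1417 (1343 to 1494) in C and 1695 (1601 to 1793) in D, from 6084 reads. With a tolerance on the last digit 10 times wider 17 sets of reads gave its mean, against 1 for Acta2 and 1 for Tpm2. The highest was 1.29 times the lowest, and the library with the least depth had the highest value. The solved partner genes nearest in level had lower means, closer to the 929 of Tpm2. Their ratios were 1.18 (Capza1, mean 942), 1.24 (Myl12b, mean 862) and 1.32 (Tmsb10, mean 733).

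**Figure D4:**
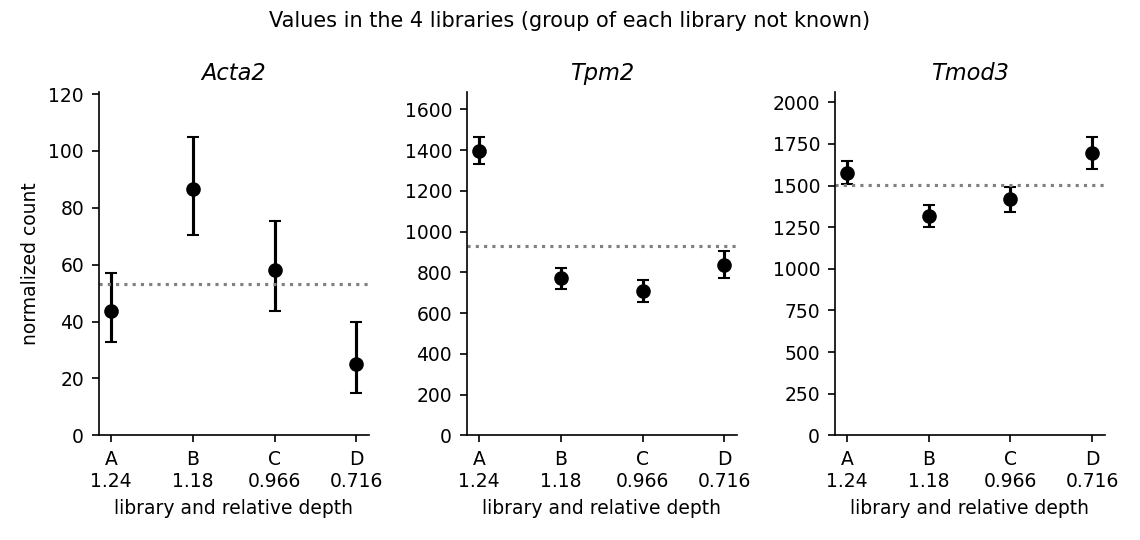
Normalized count of Acta2, Tpm2 and Tmod3 in each of the 4 libraries, named A to D with their relative depth; bars are exact 95% Poisson intervals and the dotted line is the mean. Acta2 runs from 25.1 to 86.5, Tpm2 stands at 1398 in library A and at 709 to 838 in the others, and Tmod3 runs from 1317 to 1695; the group of each library is not known.

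Markers of cells that use Acta2 were looked at beside it. Of 8 smooth muscle markers none was at 0, and 7 could be solved in the same way. The unsolved marker, Smtn, had by far the highest mean of the list, 4199.9, against 125 for Synpo2, the next highest. The summed level of the 7 solved markers was 356, 434, 374 and 299 normalized counts in libraries A to D. This sum was highest and lowest in the same libraries as Acta2. The peak in B rested on Synpo2, without which the sums were 210.4, 235 and 218 in libraries B, C and D and higher in A, so that B was then the lowest. The smooth muscle myosin Myh11 had 47.7, 65.3, 38.3 and 26.5, and the actin-binding protein Synpo2 had 55.8, 224, 139 and 81.0, both highest in B. Calponin (Cnn1), at 146, 68.7, 84.9 and 99.1, and transgelin (Tagln), at 84.1, 64.5, 98.3 and 89.3, were lowest in B. Desmin (Des) had 34 reads in all and none in library D, so the smooth muscle genes did not move as 1 block.

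Other lists moved as well. The summed level of the 3 immune markers that could be solved, of 4, was 547, 1090.1, 946 and 539, and that of the 4 melanocyte markers 830.5, 668, 1949 and 335, in libraries A to D. The 4 pericyte markers that could be solved, of 5, summed to 65.5, 45.0, 94.2 and 25.1, and the 3 endothelial markers to 92.2, 91.6, 113 and 39.1. The 3 fibroblast markers solved, of 5, summed to 1038, 767, 1078 and 593, the 2 suprabasal keratinocyte markers, of 4, to 538, 736, 1337 and 267, and Ly6a had 146, 159 and 179 in libraries A to C and less in D. The markers that could not be solved had the highest means of their lists. These were Cspg4 at 5882 (pericyte), Cd74 at 2744 (immune), and Col1a1 at 5186 and Col3a1 at 3397 (fibroblast). The others were Krt10 at 7246 and Krt1 at 2033 (suprabasal). For these lists the sums therefore cover only the smaller part of the level. Library D, the shallowest and the lowest for Acta2, was the lowest for each of these sums and for Ly6a, though not for each gene. Its immune sum of 539 was close to the 547 of A. Of the solved immune markers none was lowest in D, as Ptprc (57.4) and Lyz2 (234) were lowest in A and Cd207 (189) in B. The pericyte marker Abcc9 (0.848) and the fibroblast marker Pdgfra (32.2) were lowest in B. Skeletal muscle markers, of which 2 of 8 were listed at 0, summed to 8.90, 25.4, 12.4 and 8.38. Of the HF-SC markers only Tcf7l1 could be solved, and it ran the other way, from 518 in library A to 670.1 in library D. The part of other cells, or of depth, in the Acta2 values was not tested.

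**Figure D5:**
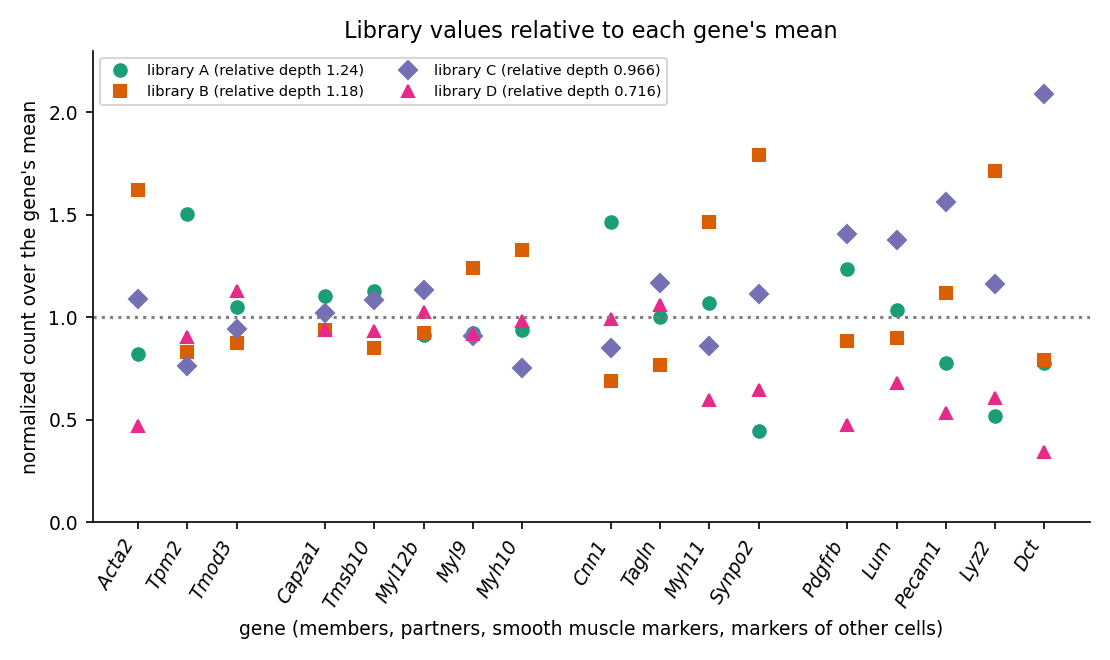
Normalized count of each gene in libraries A to D divided by the gene's mean, for the 3 members solved, solved partner genes, and solved markers of smooth muscle and of other cells (Pdgfrb pericyte, Lum fibroblast, Pecam1 endothelial, Lyz2 immune, Dct melanocyte). Tpm2 is highest in library A, as is Cnn1; Acta2, Myh11 and Synpo2 are highest in library B; the members other than Acta2 and the partner genes spread less than most markers.

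How surely reads can be given to a member differed between the genes. For Actb, Acta2, Tpm1, Tpm2 and Tmod3, no stretch of 150 bases of the longest transcript occurred elsewhere in NCBIM37 without a mismatch. For Actg1 81.9% of 150-base stretches had an exact copy elsewhere, for Tpm3 31.5% and for Tpm4 6.22%. Actg1 had 7 copies, without introns, that aligned over at least 1000 bases, the closest 99.7% identical over 1905 bases at chr4:103235930-103237834, where a pseudogene and a protein-coding model are annotated. Tpm3 shared its stretches with Tpm3-rs7, an intronless relative at chr14:113714030-113715936 that is 99.2% identical, and 65.7% of its coding stretches were among them. The Tpm4 copy, 95.3% identical, lies on chromosome 17.

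Of the models annotated at the Actg1 copies a lincRNA had a row in the table, with a mean of 0.202 normalized counts, and Tpm3-rs7 had none. The copies of Actb and Tpm4 overlap the genes Lrrc58, with a mean of 994, and Zfp943, with a mean of 106, and Actb shared 172 of its 50-base stretches with Lrrc58. How reads that fit more than 1 place were counted is not given in the sources used here, so the levels of Actg1 and Tpm3, and their shares of the 2 families, are uncertain in that respect. Between members, exact sharing was confined to short stretches of the actins: of 50-base stretches, 30 were the same in Actb and Actg1 and 7 in Actg1 and Acta2.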

How the data were processed

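Total RNA of sorted HF-SCs was made into strand-specific libraries (NEBNext Ultra Directional) and sequenced on a NovaSeq. Reads were aligned by the authors with HISAT2 2.1.0 and handled with SAMtools 1.3.1, counted per gene with HTSeq and normalized with DESeq2 (for these last tools no version is named). The submitters' processing notes name the build mm10, and the methods name NCBI37/mm10, which are different builds. The deposited table holds, per gene, the authors' mean normalized count over all 4 libraries, a signal with no SD, and their log2 fold change, its standard error, Wald statistic, p-value and adjusted p-value. Only the mean was used here, since the other columns hold the authors' own comparison, and no column of per-sample values was used. Planned comparisons between groups were therefore none.

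Whole reads per library were solved from means up to 1600, written with 15 digits, and kept where exactly 1 solution existed. The solver was tested on simulated reads with known answers. A depth rebuilt from solved genes as a median of ratios lay within 0.933 to 1.07 of the depth read from single reads. No library total is printed, as most reads lie in genes that were not solved, and means carry no interval.

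Lengths, coordinates and sequences came from GENCODE vM1 on NCBIM37, matched by symbol, and miR-205-5p from RefSeq. No coordinate was converted between builds. Copies were found with blastn 2.17.0 at a word size of 28, in windows of 150, 75 and 50 bases. Python 3.11.15, Biopython 1.88 and numpy 2.4.6 were used. The genes named were the 8 members and lists of related actins, tropomodulins, leiomodulins, capping, monomer-binding and myosin II genes and cell type markers. The members and lists were chosen with earlier results of these data known.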

Additional observations from a re-analysis of the deposited data

How the results depend on the processing

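Of 54 recomputed values, 37 stayed within 1.5 times the reported value or within 1 SD of the libraries, and 17 did not. Some of the 37 could not have come out otherwise. With 4 libraries, leaving out 1 cannot move a mean by 1 SD, which covers the means of Acta2, Tpm2 and Tmod3. The Tmod3 ratio of highest to lowest library was 1.29 and can only fall, so it could not pass the limit. The median level per kilobase of the 8 members was 734 with the exon union, 1740.0 with the longest transcript and 4991 with the longest coding length. The Actg1 share of the actins stayed between 78.4% and 79.3%, whereas the Tpm4 share of the tropomyosins fell from 58.0% to 34.7% without division by length. In place of 1 member with a seed match in its 3′UTR there were 0 with the shortest 3′UTRs, 3 with bases 2 to 7, 0 with bases 2 to 7 followed by A, and 3 with the coding sequence searched, a choice made after seeing the data, as were the search of the whole genome, the shares by coding length and the smooth muscle sums without a marker. In place of 1 member with a 150-base stretch shared with another gene's coding transcripts there were 2 at 75 bases, 5 at 50 bases and 3 when the whole genome was searched. The median percentile of the members' means was 97.1, against 95.2 over genes with a mean over 50 and 94.8 for levels per kilobase. Solving reads with a tolerance 10 times wider left 2 members in place of 3 with 1 solution. Leaving out each library in turn moved the mean of Acta2 from 42.2 to 62.7, of Tpm2 from 772 to 1002 and of Tmod3 from 1436 to 1563 normalized counts. The ratio of the highest to the lowest library fell from 3.44 to 1.98 for Acta2 without library D and from 1.97 to 1.18 for Tpm2 without library A.

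No paired analysis was possible because the value used is 1 mean over all 4 libraries, and the solved libraries carry neither a group nor a replicate number. The depth of the libraries limits what can be said of Acta2, which rested on 230 reads in all.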
